A study of Homo sapiens with 20 samples.

Results

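CTCF binding was profiled in IMR90 human lung fibroblasts with a low-cell chromatin immunoprecipitation protocol, in 2 libraries from cells given a control siRNA and 2 libraries from cells given a CTCF siRNA. These 4 libraries, of 20 in the series, were taken by their sample labels, and their peaks on chromosomes 1 to 22 and X are described. Cells of both groups received 20 nM of a siRNA pool, were split and transfected again midway, and were collected at 144 h. The groups differed by their labels only in the pool, which was a non-targeting pool for the control siRNA and a pool against CTCF for the CTCF siRNA. A control site is a region formed by overlapping peaks of the control libraries with a peak in both, and there were 16816 control sites. A site was counted as kept in a CTCF siRNA library when a peak of that library overlapped it by at least 1 bp. The labels do not say whether replicates came from separate cultures, so the spread between them may be technical. The amount of CTCF protein left in the cells was not analysed here, and the peak lists do not hold the read depth.

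CTCF is a zinc finger protein that binds a long, directional DNA motif at very many places in the human genome. Together with the ring-shaped cohesin complex it holds the anchors of chromatin loops and the borders of many contact domains, and loops tend to form between motifs that point towards each other. It is also known as an insulator protein at imprinted genes, HOX clusters and protocadherin clusters. Lowering CTCF with an siRNA asks which of its sites still hold enough of the protein to be seen as a peak.

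The following 30-base stretches of hg19 show the motif at 6 control sites that the results below turn on, each read 5′ to 3′ on the motif strand. Capitals mark the 14 bases aligned to the CTCF core consensus, and lower case gives the 8 bases on either side. The first pair, at the ends of chromosomes 12 and 16, is shown because it lies at very strong sites kept in both CTCF siRNA libraries and has the same 30 bases at both. The next lies near EIF1 and was also kept in both. The stretch near S1PR1 belongs to a weak site that was kept in both. The COL1A1 promoter and the DANT1 array hold the strongest sites that were kept in neither.
chr12:94305-94334, plus strand: ccccggcgCCAGCAGGGGGCGCtggccacc
chr16:60956-60985, minus strand: ccccggcgCCAGCAGGGGGCGCtggccacc
chr17:39819060-39819089, minus strand, near EIF1: ccggaccaCCGGCAGGGGGCGCtgctgctc
chr1:101754149-101754178, minus strand, near S1PR1: cctaatgaCCACTAGGTGGCAGtaatgtcc
chr17:48278232-48278261, plus strand, COL1A1 promoter: agcatcggTCAGCAGGGGGCGCaaggaccc
chrX:114981463-114981492, minus strand, DANT1 array: agccagttCCTCTTGATGGCAGtattgctc
The stretches at chromosomes 12 and 16 and near S1PR1 have 0 mismatches to the consensus. The stretches near EIF1 and at COL1A1 have 1 mismatch, at core positions 3 and 1, counted from 1 at the first capital. The array stretch has 2 mismatches, at core positions 3 and 6.

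The CTCF siRNA libraries held far fewer peaks than the control libraries, and they differed from each other. Control replicate 1 had 20179 peaks and control replicate 2 had 19097. CTCF siRNA replicate 1 had 5086 peaks and CTCF siRNA replicate 2 had 1941. The groups did not overlap, with 19638 ± 765.1 peaks (SD, n = 2) against 3513.5 ± 2224 peaks (SD, n = 2), or 17.9% of the control mean. An exact two-sided permutation test over the 4 libraries gave p = 0.33, which is the smallest p this design allows. The fold enrichment of a peak, the ratio of its pile-up to the local background as given by the peak caller, is not scaled between libraries. Its median was 8.15 in control replicate 1, 7.76 in control replicate 2, 8.27 in CTCF siRNA replicate 1 and 6.58 in CTCF siRNA replicate 2 (exact permutation p = 1.0). Peaks were narrower in the CTCF siRNA replicates, with median widths of 345 and 169 bp against 399 and 406 bp (exact permutation p = 0.33). CTCF siRNA replicate 2 stood apart, in that its narrowest peak spanned 77 bp, where the narrowest of each other library spanned 193 to 217 bp, with 42.9% of its peaks narrower than 150 bp. Its 1941 peaks took 209 different values of fold enrichment, against 778 to 1321 in the other libraries. Such a count grows with the length of a list and was not compared at equal length.

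The cell line was checked against the other CTCF lists of the series, made with a standard protocol in IMR90 and in LNCaP, a prostate cancer cell line. IMR90-only sites are standard sites of IMR90 control cells with no LNCaP control peak, and LNCaP-only sites are the reverse. Of 3603 IMR90-only sites, the low-cell control replicates had a peak at 9.91% and 9.63%. At 6351 LNCaP-only sites they had one at 4.41% and 4.00%. The CTCF siRNA replicates went the other way, with peaks at 0.416% and 0.0278% of IMR90-only sites against 1.09% and 0.409% of LNCaP-only sites. The standard IMR90 CTCF siRNA lists had peaks at 14.6% and 12.1% of IMR90-only sites and 1.04% and 0.945% of LNCaP-only sites. In the LNCaP CTCF siRNA lists these shares were 0.111% and 0.888% of IMR90-only sites and 1.79% and 2.98% of LNCaP-only sites. Of the LNCaP-only sites, 207 were also low-cell control sites, and 29.0% of these were kept in CTCF siRNA replicate 1, against 30.7% expected if each site were kept at the share of all control sites of like strength (its decile of fold enrichment, described below). The 210 low-cell control sites among the IMR90-only sites were weaker, with a median fold enrichment of 6.46 against 9.26, and 10 of them (4.76%) were kept in replicate 1, against an expected 16.8%. Both replicates kept 0 of these 210, against an expected 5.21%, and 22 of the 207 (10.6%), against an expected 12.3%. The peaks of CTCF siRNA replicate 1 that met no low-cell control peak showed no such lean, with 6 of 227 at IMR90-only and 5 at LNCaP-only sites. Of the 21 such peaks of replicate 2, 0 lay at IMR90-only and 3 at LNCaP-only sites. Among these peaks, 34 of replicate 1 and 3 of replicate 2 met a standard IMR90 control peak. An LNCaP control peak was met by 41 and 6. These marker sites therefore leaned towards IMR90 in the control libraries, though less than in the standard IMR90 CTCF siRNA lists. They did not tie the CTCF siRNA libraries to IMR90, and the lean of those libraries had the direction seen in the LNCaP CTCF siRNA lists. The reason was not tested.

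Most control sites had no peak left after CTCF siRNA. Of 16816 control sites, 4703 (28.0%; 95% Wilson interval 27.3 to 28.7) were kept in CTCF siRNA replicate 1 and 1847 (11.0%; 10.5 to 11.5) in replicate 2. Both replicates kept 1815 sites (10.8%; 10.3 to 11.3), and neither kept 12081 (71.8%; 71.2 to 72.5). The intervals cover counting error only and are much narrower than the gap between the replicates. The replicates were nested, since 98.3% of the sites kept in replicate 2 were also kept in replicate 1, whereas 38.6% of those kept in replicate 1 were kept in replicate 2. Replicate 1 alone kept 2888 sites (17.2%) and replicate 2 alone kept 32 (0.19%). For comparison, 83.7% of the peaks of control replicate 1 and 88.4% of those of control replicate 2 were found in the other control library. On the same base of single-library peaks, 23.8% and 24.8% were found in CTCF siRNA replicate 1 and 9.22% and 9.70% in replicate 2. Of the CTCF siRNA peaks themselves, 227 (4.46%) of replicate 1 and 21 (1.08%) of replicate 2 lay at no control peak.

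The shares depended strongly on the length of the lists. When every list was cut to the 1941 peaks with the lowest p-values, 1118 control sites remained, and CTCF siRNA replicates 1 and 2 kept 41.8% and 42.2% of them. Both kept 402 (36.0%), while 57.7% and 57.6% of the peaks in the cut control lists were found in the other control list. At equal length the replicates thus had close kept shares. A smaller share of control sites reappeared in a CTCF siRNA list than of control peaks in the other control list. The bases differ, since a control site already has a peak in both control lists.

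The kept sites were the stronger and wider sites in control cells. Sites kept in both had a median control fold enrichment of 12.8 (quartiles 9.72 and 16.4), against 7.94 (6.31 and 10.3) for sites kept in neither. Sites kept in replicate 1 only lay between, at 10.6, and the 32 sites kept in replicate 2 only had a median of 9.44. In control replicate 1 the medians were 13.3 for sites kept in both and 8.15 for sites kept in neither. In control replicate 2 they were 12.2 and 7.65. The ratio of the medians was 1.62, and it ranged from 1.51 to 1.70 when kept and other peaks were compared within each of the 4 pairs of a control and a CTCF siRNA library. In the cut lists, which hold only strong sites, the ratio was 1.07.

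**Figure D1:**
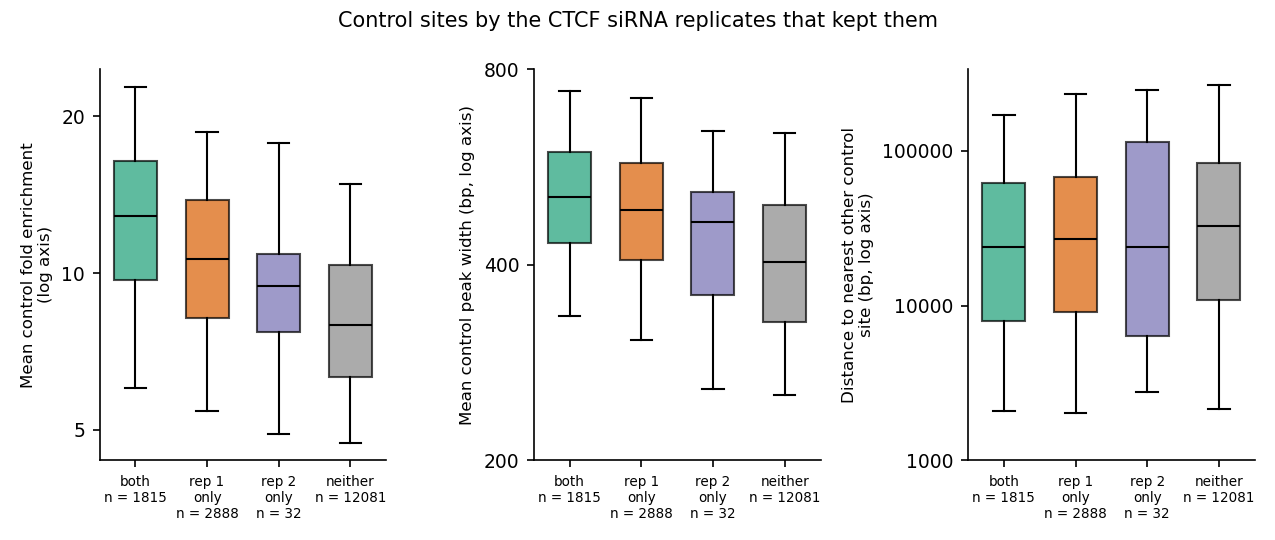
Box plots of mean control fold enrichment, mean control peak width (bp) and distance to the nearest other control site (bp), all on log axes, for control sites kept in both, in replicate 1 only, in replicate 2 only and in neither of the CTCF siRNA replicates. Boxes span the quartiles with the median as a line, and whiskers span the 5th to 95th percentiles; median strength and width step down from both (12.8 and 508 bp) to replicate 1 only to neither (7.94 and 403.5 bp).

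The median control width was 508 bp for sites kept in both, 486 bp for sites kept in replicate 1 only and 403.5 bp for sites kept in neither. The difference of 104.5 bp between both and neither ranged from 100 to 123 bp over the 4 pairs of libraries. Width goes with strength, so the sites kept in neither were weighted to have the same deciles of fold enrichment as the sites kept in both. The difference was then 18 bp. Sites kept in both were wider in 10 of 10 deciles, but by as little as 1 bp and at most 96.4 bp. The medians were 493.5 against 491 bp in decile 8 and 510.5 against 509.5 bp in decile 9. Sites kept in both lay closer to another control site, with a median distance of 23961 bp against 32903 bp, a ratio of 0.728 (0.749 to 0.785 over the 4 pairs of libraries). After weighting, the ratio was 0.927. In the cut lists the width difference was 6.25 bp and the distance ratio turned to 1.44.

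The share kept climbed with control strength, and most of the climb lay in the upper deciles. Control sites were ranked by mean control fold enrichment and divided into 10 groups of equal size, called deciles. In the lowest decile, with fold enrichments of 2.63 to 5.46, 60 of 1682 sites (3.57%; 2.78 to 4.56) were kept in both. The share was 2.73% in decile 2, 3.81% in decile 3, 5.11% in decile 4 and 4.22% in decile 5, and the intervals of these neighbours overlap. It was 7.67% in decile 6, 9.22% in decile 7, 15.3% in decile 8 and 19.9% in decile 9. In the highest decile, 613 of 1681 sites (36.5%; 34.2 to 38.8) were kept in both and 566 (33.7%) in neither. CTCF siRNA replicate 1 went from 12.5% in the lowest to 66.1% in the highest decile, and replicate 2 from 3.80% to 36.7%. Recovery between the controls also varied with strength, from 54.4% in the lowest to 100% in the highest decile for peaks of control replicate 1 and from 67.8% to 100% for those of control replicate 2. Weak peaks were thus often missed between libraries of the same group as well.

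**Figure D2:**
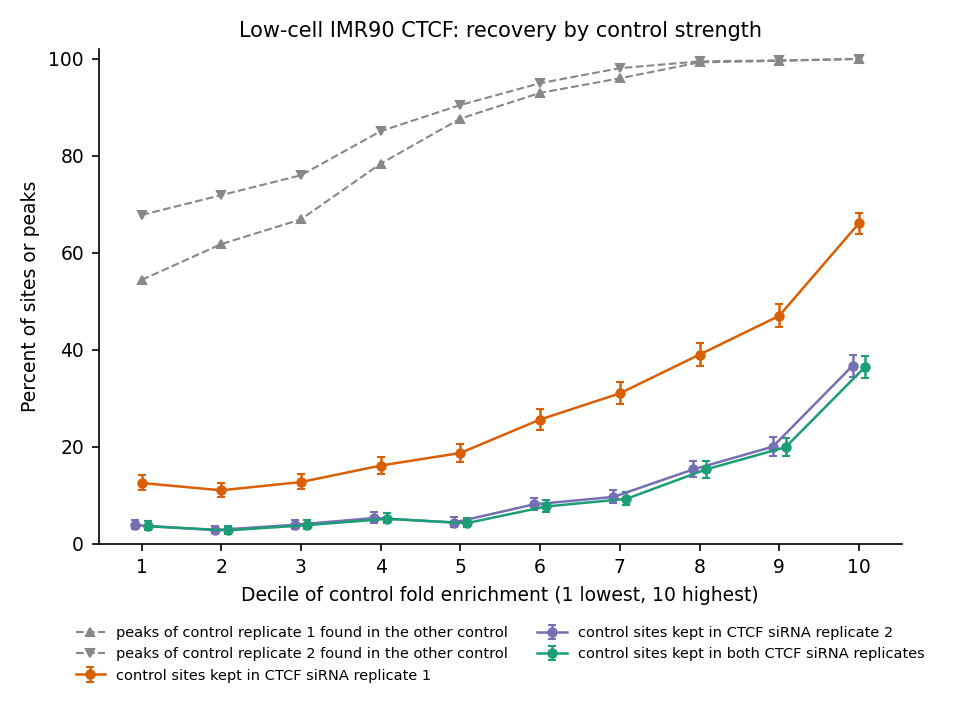
Percent of control sites kept in CTCF siRNA replicate 1, in replicate 2 and in both (vertical axis) in each decile of mean control fold enrichment (horizontal axis, 1 lowest), with 95% Wilson intervals; dashed lines give the percent of peaks of each control replicate found in the other, in deciles of that replicate. The share kept in both goes from 3.57% to 36.5%, while recovery between controls reaches 100% in the highest decile.

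Over all sites kept in a replicate, the peaks that remained mostly had a lower listed fold enrichment and were narrower than in control cells. The sites kept in both were not lower in replicate 1, where their median fold enrichment was 13.3, against 12.8 in control cells. In replicate 2 it was 6.63. The sites kept in replicate 1 only had a median of 7.14 there, against 10.6 in control cells. In CTCF siRNA replicate 1, the median ratio of fold enrichment to the control mean was 0.805 (quartiles 0.567 and 1.17), and 34.7% of the 4703 kept sites had a higher fold enrichment than in control cells. In replicate 2 the median ratio was 0.553 (quartiles 0.415 and 0.748), and 10.0% of the 1847 kept sites were higher. The kept peak was narrower than the control peaks at 78.7% of sites in replicate 1 and at 99.4% in replicate 2. Across kept sites, log2 fold enrichment in CTCF siRNA and in control cells correlated weakly, with Pearson's r of 0.28 over 4703 sites and 0.21 over 1847 sites, against 0.76 between the controls over 16816 sites. Sites of the same library share its depth and threshold, so these correlations are descriptions. A site needs some enrichment to be listed at all, which sets a floor under the values of the kept sites.

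The 6 strongest sites kept in both had mean control fold enrichments of 36.3 to 54.0. The strongest, chr12:93926-94615 at the start of chromosome 12, reached 68.7 and 39.2 in controls, and 22.4 and 10.1 with CTCF siRNA. The site chr16:60741-61304 at the start of chromosome 16, at the promoter of DDX11L16, had 39.1 and 33.6 in controls and 29.0 and 10.9 after CTCF siRNA. These are the chromosome-end sites with the same 30 bases shown above, so reads from such copies may not be told apart. Both had a peak in both standard IMR90 and both LNCaP control lists, whose read filter is given below. The part of shared reads in the low-cell values was not tested. At chr17:39818643-39819523, an intergenic site 26062 bp from EIF1, a translation initiation factor, the values were 43.6 and 34.3 in controls and 41.4 and 15.9 after CTCF siRNA. There, replicate 1 after CTCF siRNA was within the control range, and replicate 2 was below it. The others lay at the LINC02332 promoter (chr14:23025634-23026629), near PSD2 (chr5:139144990-139145778) and 27422 bp from PBDC1 on the X chromosome (chrX:75365263-75365707). The site near PBDC1 was the exception among the 6, with 43.6 and 42.3 in controls and 6.19 and 5.79 after CTCF siRNA. Its neighbour at chrX:75369122-75369507, with 49.8 and 41.0 in controls, was kept in replicate 1 only, at 4.83. Neither of these X sites had a peak in any standard IMR90 or LNCaP CTCF list. Per the study's methods, those lists left out reads that map to several places, a filter not stated for the low-cell lists. The part of this in the absence was not tested.

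The 6 strongest sites kept in neither were 4 sites of a tandem array inside DANT1 on the X chromosome, described below, and the promoters of COL1A1 and PDE4A. The COL1A1 promoter site, chr17:48277771-48278513, had fold enrichments of 30.3 and 34.3 in control cells. COL1A1 encodes a chain of type I collagen, the main matrix protein made by fibroblasts. The PDE4A promoter site, chr19:10527092-10528017, had 28.4 and 29.6, and PDE4A encodes a phosphodiesterase that breaks down cyclic AMP. Both had a peak in both standard IMR90 CTCF siRNA lists. The mean of 32.3 at COL1A1 lay well above 15.1, the lowest mean fold enrichment of the highest decile, of whose 1681 sites 613 were kept in both.

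At the weak end, the 6 sites kept in both with the lowest control strength had mean control fold enrichments of 3.15 to 4.15. The site chr1:101753943-101754302, 44872 bp from S1PR1, a receptor for sphingosine 1-phosphate, had 3.80 and 3.77 in controls, against 19.5 and 7.24 after CTCF siRNA. An intronic site of TSPAN33, a tetraspanin, at chr7:128803814-128804260 had 3.55 and 3.57 in controls and 9.99 and 6.51 after CTCF siRNA. The other 4 lay in KCTD16 and MIPOL1 introns, near RBM43 and at a promoter on chromosome 17 (chr17:7960987-7961288). Fold enrichment after CTCF siRNA was above both control values at each of the 6 in both replicates. These sites were picked for low control values among sites listed in both CTCF siRNA replicates, a choice that by itself favours values above control. All 6 had a motif with at most 2 mismatches and a peak in both standard control lists and both standard CTCF siRNA lists.

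Only 32 sites were kept in replicate 2 without replicate 1. The strongest were at the promoter of PIGO (chr9:35095827-35096832), which takes part in building the membrane anchor of many surface proteins, near HUNK (chr21:33238299-33238855), a kinase gene, and at the promoter of EHD1 (chr11:64655236-64655786), a regulator of endocytic recycling. Their control fold enrichments were 19.9 and 18.2 at PIGO, 18.0 and 19.1 near HUNK and 19.4 and 16.1 at EHD1. In replicate 2 they were 5.79, 5.07 and 6.51. The strongest sites kept in replicate 1 only, beside the array and the neighbour of the PBDC1 site, included the LINC01569 promoter at chr16:4303958-4304498, with 44.1 and 38.9 in controls and 9.99 in replicate 1.

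The CTCF motif was more frequent at kept sites, and the share kept varied with the quality of the match at weak sites but not detectably at the strongest. A motif is a match to the CTCF core consensus with up to 2 mismatches within 100 bp of the mean control summit, on either strand. It was found at 83.1% of control sites, against 5.92% of windows of the same length 1000 bp away. Sites kept in both had a motif in 91.0% (89.6 to 92.2), sites kept in replicate 1 only in 89.2% and sites kept in neither in 80.4% (79.7 to 81.1). After weighting to equal strength, the share in the sites kept in neither was 87.2%, and the difference went from 10.6 to 3.84 percentage points. The unweighted difference was 17.1 percentage points without control replicate 1, 16.7 without control replicate 2 and 19.9 with at most 1 mismatch allowed. In the cut lists, the difference turned to -1.38 percentage points. Perfect matches were found at 31.0% of sites kept in both and 14.9% of sites kept in neither, or 23.6% after weighting.

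Read the other way, 18.1% of 3112 sites with a perfect match were kept in both. The share was 11.5% with 1 mismatch, 7.90% with 2 mismatches and 5.72% with no match. In deciles 1 to 5, the share kept in both was 8.06% (6.57 to 9.86) with a perfect match, 4.93% (4.21 to 5.76) with 1 mismatch, 2.82% (2.24 to 3.55) with 2 mismatches and 1.32% (0.896 to 1.94) with no match. These 4 intervals do not overlap. In decile 10 the shares were 36.5% (32.7 to 40.5), 36.8% (33.2 to 40.6), 32.9% (28.0 to 38.2) and 43.3% (35.0 to 52.0), and all 4 intervals overlap.

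**Figure D3:**
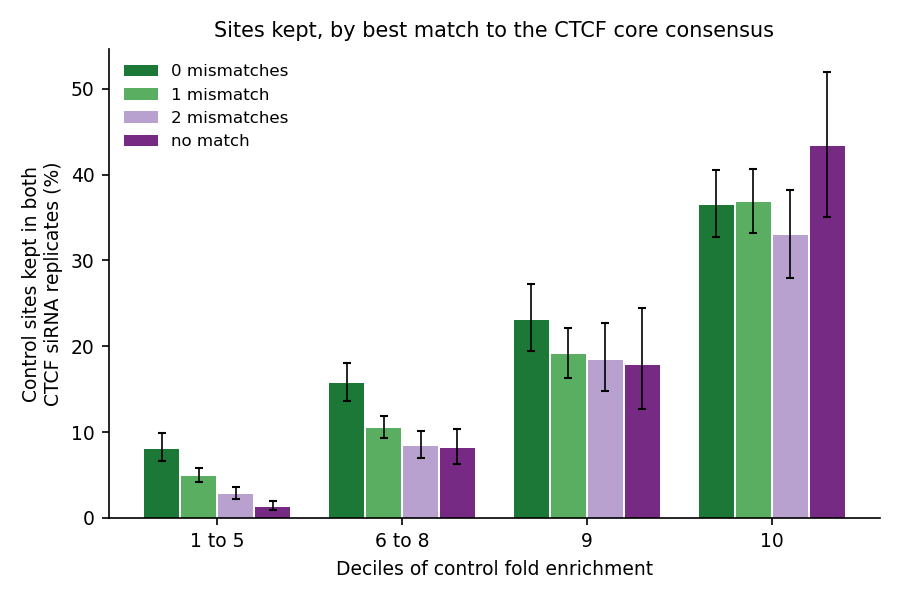
Percent of control sites kept in both CTCF siRNA replicates (bars, vertical axis from 0) by the best match to the CTCF core consensus, in 4 groups of deciles of control fold enrichment (horizontal axis), with 95% Wilson intervals. In deciles 1 to 5 the share goes from 8.06% with 0 mismatches to 1.32% with no match, while the 4 bars of decile 10 overlap.

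Without weighting to equal strength, which was not done by position, the end of the core was the part that differed most. Among sites with a motif, position 12 matched the consensus at 90.1% of sites kept in both, 87.1% of sites kept in replicate 1 only and 79.0% of sites kept in neither. The match at position 14 was 93.2% against 85.6% for both and neither, at position 13 it was 98.5% against 93.0%, and at position 11 it was 93.0% against 89.8%. At positions 1 to 10 the 2 classes differed by at most 1.61 percentage points. A CG dinucleotide, where DNA methylation can occur, lay in the core at 56.7% (54.3 to 59.1) of sites kept in both, 48.1% of sites kept in replicate 1 only and 31.6% (30.7 to 32.5) of sites kept in neither. At equal strength the last share was 42.0%, a difference of 14.7 percentage points. The GC content around the summit had medians of 55.2% and 49.3%, and equal medians of 55.2% after weighting. DNA methylation was not analysed here.

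Kept sites lay more often between genes. Of 5632 intergenic control sites, 14.8% (13.9 to 15.7) were kept in both, against 11.1% expected from the deciles of these sites, that is, if each site were kept at the share of its decile. Of 7163 intronic sites, 7.61% (7.02 to 8.25) were kept in both against an expected 9.93%. Of 3066 promoter sites, within 1000 bp of a transcription start, 11.3% (10.2 to 12.4) were kept against an expected 11.8%. Of 201 sites in coding exons, 7 (3.48%; 1.70 to 7.01) were kept against an expected 9.98%. In CTCF siRNA replicate 1, 34.7% of intergenic and 23.2% of intronic sites were kept, and in replicate 2, 15.0% and 7.76%. Intergenic sites therefore made up 45.9% of the sites kept in both and 30.3% of those kept in neither.

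Close neighbours tended to be kept together. Of 297 sites kept in both whose nearest control site lay within 5000 bp, 76 (25.6%) had a neighbour that was also kept in both. The deciles of these neighbours gave an expected 13.5%. For 1621 sites kept in neither with such a neighbour, the share was 9.50% against an expected 11.8%. Beyond 50000 bp the neighbour was kept in both for 8.99% of the sites kept in both and 9.42% of those kept in neither. Sites that are each other's nearest neighbour are counted from both ends, so the sites are not separate observations and no interval is given. Of 1250 pairs of consecutive control sites within 5000 bp, 41 had both sites kept in both, and in 0 of these did 1 CTCF siRNA peak cover the pair. Pairs share their sequence surroundings and their library, and the part of this in the result was not tested. The direction of the motifs did not distinguish the classes. Consecutive motifs of sites kept in both pointed towards each other in 26.0% (24.0 to 28.2) of 1629 pairs, against 26.6% (25.7 to 27.5) of 9689 pairs of sites kept in neither. The former pairs lay farther apart, at a median of 694930 bp against 138750 bp. Pairs were formed within a class, and fewer sites on the same chromosomes are by themselves spaced farther apart.

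Chromosomes differed in how many of their control sites were kept, and the X chromosome was lowest. The share kept in both was 3.95% (2.51 to 6.15) on the X chromosome, or 18 of 456 sites, against 10.8% over all sites and 8.53% expected from the deciles of its sites. On the autosomes it ranged from 6.75% (5.13 to 8.84) on chromosome 4 to 15.7% (12.8 to 19.1) on chromosome 20. The intervals of chromosomes 1, 2, 4, 20 and X left out the share over all sites. Chromosome 2, at 13.1% (11.4 to 15.1), and chromosome 20 were also above the 10.2% and 11.5% expected from their deciles, whereas chromosome 1, at 12.3%, was close to its 11.6%. The interval of chromosome 4 took in the 8.30% expected from its deciles. The SD over the 23 chromosomes was 2.31 percentage points, 2.16 after standardising to equal deciles and 1.86 without the X chromosome. The CTCF siRNA replicates gave similar orders, with Pearson's r of 0.84 and Spearman's rho of 0.74 over 23 chromosomes. This is a description, since replicate 2 kept almost only sites that replicate 1 kept. On the X chromosome, replicate 1 kept 21.3% against an expected 23.6%, and replicate 2 kept 4.17% against an expected 8.72%.

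**Figure D4:**
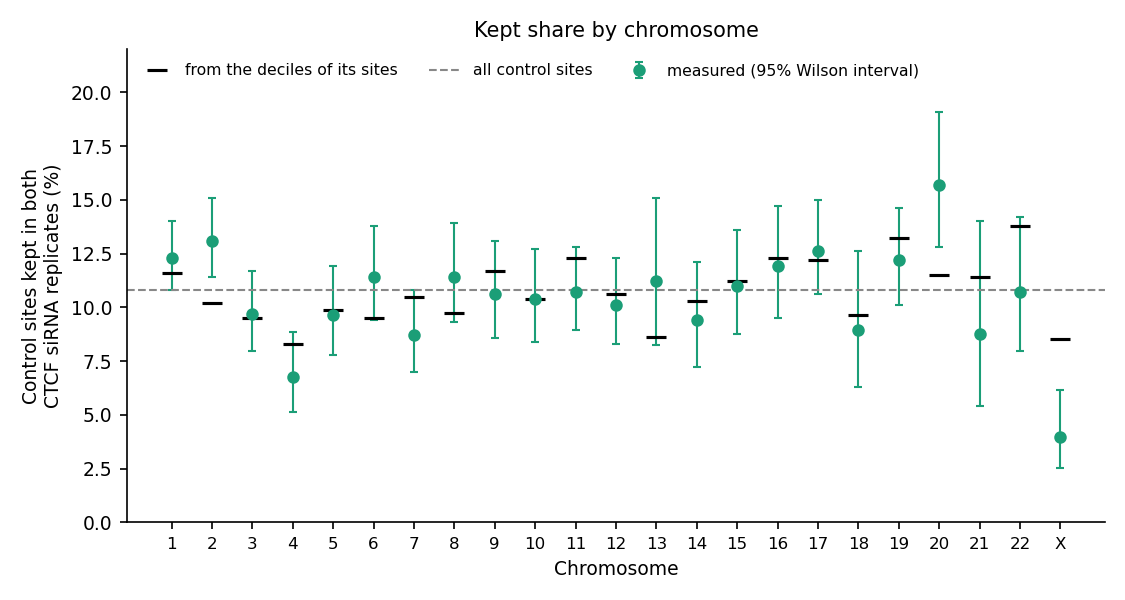
Percent of control sites kept in both CTCF siRNA replicates (vertical axis) on each chromosome (horizontal axis), as points with 95% Wilson intervals; black dashes give the percent expected from the deciles of its sites, and the dashed line the share of all control sites. The X chromosome is lowest at 3.95% and chromosome 20 highest at 15.7%.

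The strongest block of sites that was not kept in both lay in a tandem array on the X chromosome. DANT1 (chrX:114957232-115024399) is a noncoding gene at DXZ4, a macrosatellite in which a CTCF-binding unit is repeated head to tail. The 17 control sites inside it were picked out after their values were seen. Their summits were spaced at a median step of 2985.5 bp, and 13 of the steps were between 2900 and 3100 bp. The mean control fold enrichment had a median of 28.1 (4.85 to 46.6), and 13 of the 17 were in the highest decile. After CTCF siRNA, 0 were kept in both, 6 were kept in replicate 1 only, and 11 were kept in neither. The 6 kept sites had fold enrichments of 4.72 to 7.61 in replicate 1, where the same sites had 13.7 to 53.1 in control replicate 1. Over the whole highest decile, 613 of 1681 sites were kept in both. Of the 17 sites, 15 had a motif, and all 15 had the 30 bases printed above for the DANT1 array, on the minus strand. Reads from identical units cannot be assigned to a unit, so the 17 sites are not independent and the values of single units are uncertain. Of the 17, 1 had a peak in a standard IMR90 control list and 0 had one in an LNCaP control list. Those lists left out reads that map to several places, so absence from them does not show a lack of binding. Without the array, 18 of the other 439 X sites (4.10%; 2.61 to 6.39) were kept in both, against an expected 7.64%.

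**Figure D5:**
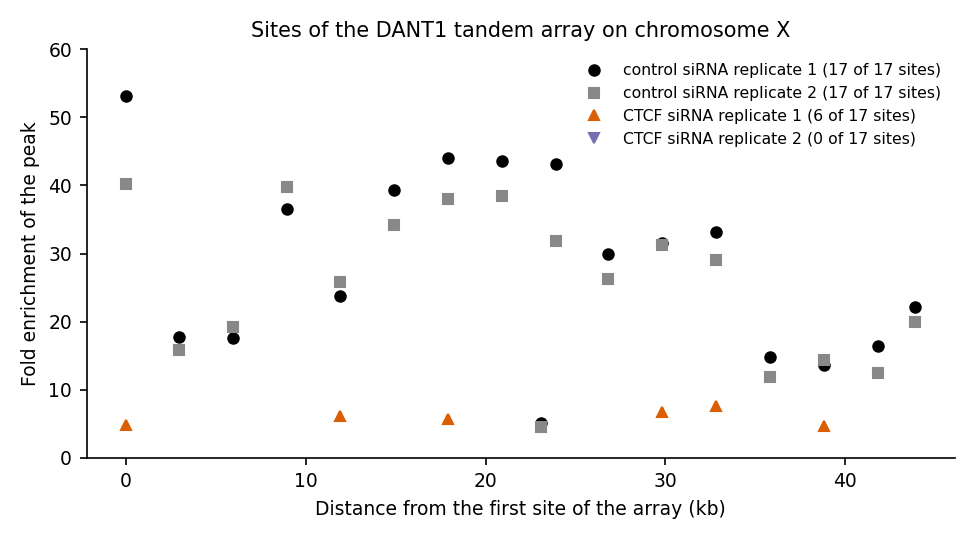
Fold enrichment (vertical axis) at the 17 control sites of the DANT1 array against the distance from its first site (kb, horizontal axis), 1 point per library and site where a peak was listed. Control values are high at most units, up to 53.1, whereas CTCF siRNA replicate 1 has peaks at 6 sites, at 4.72 to 7.61, and replicate 2 has none.

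The lists of the other CTCF experiments were used as readouts that had no part in the classes. Over their own control sites, both standard IMR90 CTCF siRNA lists kept 51.4% and both LNCaP CTCF siRNA lists kept 9.26%, beside the 10.8% of the low-cell libraries. Of the low-cell sites kept in both, 93.1% (91.8 to 94.1) had a peak in both standard CTCF siRNA lists, against 69.5% (68.7 to 70.3) of those kept in neither and 80.0% of these at equal strength. In the cut lists that difference was 2.84 percentage points. With the LNCaP CTCF siRNA lists the gap was wider, at 63.1% (60.9 to 65.3) of sites kept in both, 33.2% of sites kept in replicate 1 only and 5.36% (4.98 to 5.78) of sites kept in neither, or 8.34% at equal strength. The share in LNCaP was higher for sites kept in both in 10 of 10 deciles, by 46.5 to 62.5 percentage points. The classes were closer in the LNCaP control lists, where 95.2% of sites kept in both and 90.0% of sites kept in neither had a peak in both. In all, 1138 sites, or 62.7% of those kept in both, were in both CTCF siRNA lists of each of the 3 experiments. At the other end, 81 sites kept in both (4.46%) were in neither standard CTCF siRNA list, and 67 of these (82.7%) were in no standard control list either. The standard lists left out reads that map to several places, and the part of this in the absence was not tested.

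Sites near selected groups of genes were counted within 5000 bp of each gene. Near genes of CTCF, the cohesin complex and related factors there were 19 control sites, of which 0 were kept in both (Wilson interval 0 to 16.8%, with up to 15.8% allowed by a count of 0), 2 in replicate 1 only and 17 in neither. The 4 strongest were all kept in neither. The first, in the list for the DNA-binding factor YY1, lay in an intron of ENSG00000259052 (chr14:100751910-100752460) with control fold enrichments of 15.7 and 19.5. The next were at the promoters of PDS5A, with 21.3 and 10.2, and STAG1, with 15.7 and 13.1, and 4403 bp from SMC3, with 15.2 and 12.7. PDS5A encodes a cohesin regulator, and STAG1 and SMC3 encode cohesin subunits. Near genes of the fibroblast matrix and mesenchyme there were 29 sites, of which 0 were kept in both (Wilson interval 0 to 11.7%, with up to 10.3% allowed by a count of 0), 3 in replicate 1 only and 26 in neither. They included the COL1A1 promoter, an intronic site of PDGFRB, a platelet-derived growth factor receptor, with 16.6 and 19.5 in controls, and an intronic site of FAP, an activated fibroblast protease, with 16.4 and 13.8. A site 4820 bp from FOXF1, a transcription factor of lung mesenchyme, had 18.0 and 20.3 in controls and 7.14 in replicate 1. From their deciles, 10.4% and 10.7% of the sites of these groups would be kept in both.

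Near imprinted genes, 4 of 20 sites (20.0%; 8.07 to 41.6) were kept in both, 3 in replicate 1 only and 13 in neither, with an expected 14.7% for both. An intronic site of the potassium channel gene KCNQ1 at chr11:2553775-2554533 had 25.1 and 25.0 in controls and 26.6 and 10.1 after CTCF siRNA. An intronic site of IGF2, a fetal growth factor, at chr11:2172442-2173739 had 18.5 and 26.2 in controls and 30.5 and 11.5 after CTCF siRNA. A second intronic KCNQ1 site (chr11:2552523-2553131), with 16.1 and 18.6 in controls, was kept in replicate 1 only, at 7.61, and a second intronic IGF2 site (chr11:2177568-2178281), with 13.3 and 17.4, was kept in neither. The remaining sites kept in both, named because they were kept, lay at the SLC22A18AS promoter and in PLAGL1. Near HOX genes, which set position along the body axis, 4 of 17 sites (23.5%; 9.56 to 47.3) were kept in both, 3 in replicate 1 only and 10 in neither, with an expected 15.6%. A site 1319 bp from HOXA9 (chr7:27200533-27201076) had 25.1 and 14.4 in controls and 24.1 and 7.12 after CTCF siRNA. The HOXA13 promoter site (chr7:27235792-27236312) had 16.7 and 15.2 in controls and 10.7 and 7.29 after CTCF siRNA. The intronic HOXD3 site (chr2:177005064-177005809), with 18.0 and 19.9 in controls, was kept in neither. An intronic HOXD-AS2 site (chr2:176991486-176992304), with 17.4 and 11.0 in controls, was kept in replicate 1 only, at 23.3. Of 5 sites near clustered protocadherin genes, which encode neuronal adhesion proteins, 0 were kept in both (Wilson interval 0 to 43.4%, with up to 60% allowed by a count of 0). The strongest, in an exon of PCDHGA1, had 15.2 and 19.1 in controls and was kept in neither, as were sites at the PCDHGB1 promoter (8.07 and 7.65) and in PCDHGC3 (8.54 and 5.96). The PCDHGB4 promoter site, with 6.11 and 6.39, was kept in replicate 1 only, at 3.12. Of 8 sites near prostate luminal and epithelial genes, 1 (12.5%; 2.24 to 47.1) was kept in both. It lay at the promoter of GRHL2, an epithelial transcription factor, with 12.8 and 14.0 in controls and 9.48 and 4.93 after CTCF siRNA. The others of the 4 strongest sites of that group were kept in neither. They lay 168 bp from SLC45A3 (15.2 and 15.7 in controls), in an exon of SLC45A3 (10.1 and 15.3) and at the PRAC2 promoter (6.17 and 11.0). The PRAC2 site was only in decile 5. The Wilson intervals of all these groups took in the share over all sites and the share expected from their deciles. The rougher limit of 10.3% for the fibroblast group lay just under both shares, 10.8% and 10.7%.

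Few sites were gained. A peak found after CTCF siRNA in both replicates but in no control list marked only 9 sites. The strongest lay 15976 bp from VGLL3, a transcriptional cofactor (chr3:86909446-86909807), with fold enrichments of 11.9 and 6.51 in the CTCF siRNA replicates. A site 207142 bp from PKDCC, a secreted kinase (chr2:42067830-42068163), had 12.8 and 4.38, and the promoter site of RPL32, a ribosomal protein (chr3:12883239-12883529), had 7.30 and 7.00. The next were at the promoter of PCDHGB7 (chr5:140797051-140797287) and in an intron of FAM230F (chr22:18879858-18880169). Of the 9, 2 had a motif, 3 had a peak in a standard IMR90 control list and 4 had one in an LNCaP control list. Leaving out a library gave 21 sites without control replicate 1, 14 without control replicate 2, 21 without CTCF siRNA replicate 1 and 227 without CTCF siRNA replicate 2, and summits within 100 bp gave 20. In the cut lists 633 sites met this definition, since a site can drop out of a cut control list while it remains in the full one.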

How the data were processed

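CTCF ChIP-seq peak lists of 4 low-cell IMR90 libraries were analysed. Per the study's methods and the labels, the authors trimmed adapters with cutadapt, mapped reads to hg19 with BWA, used molecular identifiers to drop duplicates and ran MACS2 on each library. The study gives a false discovery rate for CTCF peak calls in general but not separately for these lists, and whether an input library was used for them is not given in the sources used here. The largest q-value was 0.0471. The deposited fold enrichment is a ratio to local background, and the deposited p-values and q-values are on a −log10 scale. Read depths are not in the lists. Sequencing depths listed with the study were similar, with CTCF siRNA replicate 1 deepest and replicate 2 shallowest. The depth left after duplicates were dropped is not given there. A peak lost from a list shows only that it fell below a threshold.

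Control peaks that overlapped by at least 1 bp were joined. Fold enrichment, width and summit of a site are means over the control libraries, each taken from its strongest peak there. Weighting gave the sites kept in neither the deciles of those kept in both. Sites were annotated with GENCODE release 44 lifted to GRCh37, and promoters reached 1000 bp either side of a transcription start. Shares have 95% Wilson intervals, and for some counts of 0 the limit of 3 counts of the total is also given. That limit is rough in groups as small as these. Group means were compared with an exact two-sided permutation test (3 groupings). Sites are not replicates, so no test was made over sites.

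The members, gene lists and named sites were chosen with earlier results of these data known. Named were the 6 strongest sites kept in both, the 6 strongest kept in neither, the 6 weakest kept in both, the 3 strongest of each single replicate, the 5 strongest gained and the 4 strongest of each gene list, beside kept list sites named after their values were seen. Alternatives are given in the closing section. Histone lists were not used, and chromosome 8 sequences were not printed. Scripts were tested on simulated data. Python 3.11.15, numpy 2.4.6, pandas 2.3.3, scipy 1.17.1, pysam 0.24.0 and matplotlib 3.10.9 were used.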

Additional observations from a re-analysis of the deposited data

Results flagged for a closer look

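Peaks outside chromosomes 1 to 22, X and Y were used in no comparison, and they made up a larger share of the CTCF siRNA lists than of the control lists. On such contigs lay 82 peaks (1.58%) of CTCF siRNA replicate 1 and 36 peaks (1.75%) of CTCF siRNA replicate 2, against 99 (0.486%) and 73 (0.380%) in the control replicates. On a single unplaced contig, gl000220, the 4 libraries had nearly the same number of peaks, 18 and 17 in controls and 17 and 18 after CTCF siRNA. On another, gl000225, they had 3 and 3 in controls and 15 and 4 after CTCF siRNA. The cause was not tested.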

How the results depend on the processing

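Of 149 recomputed values, 89 stayed within 1 SD of the replicate spread, 58 moved farther and 2 changed direction. Site counts were held to 1.5 times, and the difference in peaks per library to its direction only. The peak lists show only whether a peak passed a threshold, so how far binding fell cannot be read from them, and CTCF siRNA replicate 2 sets the share kept in both.

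Cutting every list to the shortest (no peak count can then be compared) gave 1118 control sites, shares kept in both and in neither of 36.0% and 52.0%, 633 gained sites, a strength ratio of 1.07, a width difference of 6.25 bp, a lowest-decile share of 32.1%, a chromosome SD of 13.0 and a difference of 2.84 percentage points in standard CTCF siRNA peaks. The spacing ratio (1.44) and the motif difference (-1.38 percentage points) reversed. These lists hold only strong sites and few per chromosome. A peak in either control library gave a strength ratio of 1.84, a width difference of 147 bp, a chromosome SD of 1.93, a motif difference of 18.2 and a standard-list difference of 35.7 percentage points. Adjustment for strength gave 18 bp for width, 0.927 for spacing, 2.16 for the chromosome SD, and 3.84 and 13.0 percentage points for the motif and the standard lists. Summits within 100 bp gave 20 gained sites, a spacing ratio of 0.747 and a chromosome SD of 2.14. A q-value of at most 0.001 gave a chromosome SD of 2.11 and a motif difference of 9.62. All contigs gave 15 gained sites and a spacing ratio of 0.704. Ranking by −log10 p gave a ratio of 1.99 between the classes. The motif difference was 19.9 with up to 1 mismatch and 13.5 percentage points within 50 bp. Leaving out the DANT1 sites, a choice made after seeing the data, gave 10.8% kept in both and a chromosome SD of 2.29.

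Without each replicate in turn, the share kept in both ranged from 9.05% to 28.0% (28.0% without CTCF siRNA replicate 2), that kept in neither from 72.0% to 89.0% (89.0% without CTCF siRNA replicate 1), gained sites from 14 to 227 (227 when CTCF siRNA replicate 2 was left out, 21 when replicate 1 was), the strength ratio from 1.44 to 1.79, the width difference from 88 to 135 bp, the spacing ratio from 0.724 to 0.778, the highest-decile share from 32.9% to 66.1%, the lowest-decile share from 2.03% to 12.5%, the chromosome SD from 2.07 to 2.43, the motif difference from 8.70 to 17.1 and the standard-list difference from 19.3 to 31.9 percentage points.

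Replicate numbers are shared by both groups, but deviations of same-numbered replicates correlated at 0.054 over 1815 sites, so pairing was not shown. With the number as a block, the share kept was 16.8%, the strength ratio 1.58 and the spacing ratio 0.769.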
